A study of Danio rerio with 2 samples.

Results

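The Cxcl12 and Cxcr4 chemokine axis was followed through 2 single-cell libraries of zebrafish embryos. Its 6 genes were taken by symbol from the gene lists of the deposited matrices: the ligand genes cxcl12a (LL0000008486) and cxcl12b (LL0000008487), the receptor genes cxcr4a (LL0000008502) and cxcr4b (LL0000008503), and the scavenger receptor genes ackr3a (LL0000000163) and ackr3b (LL0000000164). They are 6 of 36351 genes listed, each symbol occurs in 1 row of the list, and the rule used no measured value.

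Cells were sorted for kdrl:mCherry, a red reporter driven by the promoter of the endothelial receptor gene kdrl, from akt mutant and wild-type (WT) embryos at 24 hours post-fertilization (hpf), and 1 droplet library was made per genotype. The study describes the mutants as carrying CRISPR-made premature stops in akt1, akt2, akt3a and akt3b, born to parents homozygous for the first, the third and the last of these mutations and heterozygous for that of akt2, and both genotypes carry the reporter. Each library comes from the pooled tissue of embryos, so the spread between embryos is not known. In the plots the mutant library is written akt_mutant.

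Cxcl12 is a secreted chemokine that directs cell migration through the G protein-coupled receptor Cxcr4. Ackr3 binds the same ligand but mainly takes it up and degrades it, so that cells carrying it shape the distribution of ligand around them. Teleosts keep a pair of genes for each of these proteins. In the zebrafish, Cxcl12a and Cxcr4b guide the lateral line primordium and the germ cells, where Ackr3b clears ligand, while Cxcl12b and Cxcr4a act in the patterning of the first arteries and in the connection of brain vessels, and cxcr4a is known to be higher in brain vessels that carry no blood flow.

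After the removal of cells with fewer than 200 detected genes, 9462 akt mutant cells with 91735556 unique molecular identifiers (UMIs) and a median of 8249 UMIs per cell remained, against 16398 WT cells with a median of 5931. Cells fell into 21 clusters, and the 8 clusters high in both kdrl and cdh5 were taken as endothelial, with 6523 akt mutant and 8830 WT cells. The kdrl level in these cells was 282 and 349 UMIs per 1000000 UMIs (CPM), against 12.8 and 26.0 CPM in the erythroid-like cells of the akt mutant and WT libraries. A total of 225 cell barcodes occurred in both libraries. Of the mutated genes, akt2 had 9.04 CPM in akt mutant endothelial cells and 13.3 CPM in WT, akt3a had 0.759 and 0.679 CPM, akt3b had 8.25 and 9.03 CPM, and akt1 had 1 and 2 UMIs. The study reports strongly reduced mRNA of each of these genes in mutant embryos, by qRT-PCR at a later stage. It also reports akt1 as the highest of them in sorted endothelial cells of WT embryos. Here akt3a and akt3b were near WT and akt1 was hardly counted, which differs from both reports. The reason was not tested, and these levels do not check the genotype.

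Cells of 1 library share their source, so no test was made between akt mutants and WT, which have 1 library each. Levels are CPM of UMIs summed over the cells of a group, and ratios are log2 of akt mutant over WT. All intervals are exact 95% intervals that cover counting error only. Counts come from the ends of mRNAs and depend on the annotated end of each gene, so levels are compared between cells and not between genes.

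The ligand genes had the same leading cluster in both libraries but were spread differently over the endothelial clusters. The highest cxcl12b level was in cluster 11, epithelial or endoderm-like cells led by foxa2, with 423 CPM in the akt mutant library (399 to 448) and 391 CPM in WT (373 to 410). The vein-like endothelial cluster 1 followed with 413 CPM in akt mutants (402 to 424) and 328 CPM in WT (319 to 337). In akt mutants the intervals of these leading clusters overlapped, and in WT they did not. The other vein-like cluster, 12, had 283 and 254 CPM, and the endothelial cluster 0, which carries some vein markers, had 216 and 238 CPM in akt mutants and WT.

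The arterial clusters were the lowest endothelial places of cxcl12b. In cluster 2, an artery-like cluster led by ndnf, tbx20 and aqp1a.1, its level was 38.6 CPM in akt mutants (35.2 to 42.2) and 36.7 CPM in WT (33.5 to 40.1). Cluster 5, the other artery-like cluster, had 82.1 and 86.5 CPM, and the endocardial-like cluster 8 had 94.5 and 94.4 CPM. Erythroid-like cells, which should lack the gene and show what free RNA can give, had 6.76 CPM in akt mutants and 10.1 CPM in WT. Their median depth, 29228.5 and 20254 UMIs per cell, was above that of every endothelial cluster. Free RNA may therefore give more CPM in the shallower endothelial cells than in these cells, here and for the other members.

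**Figure D1:**
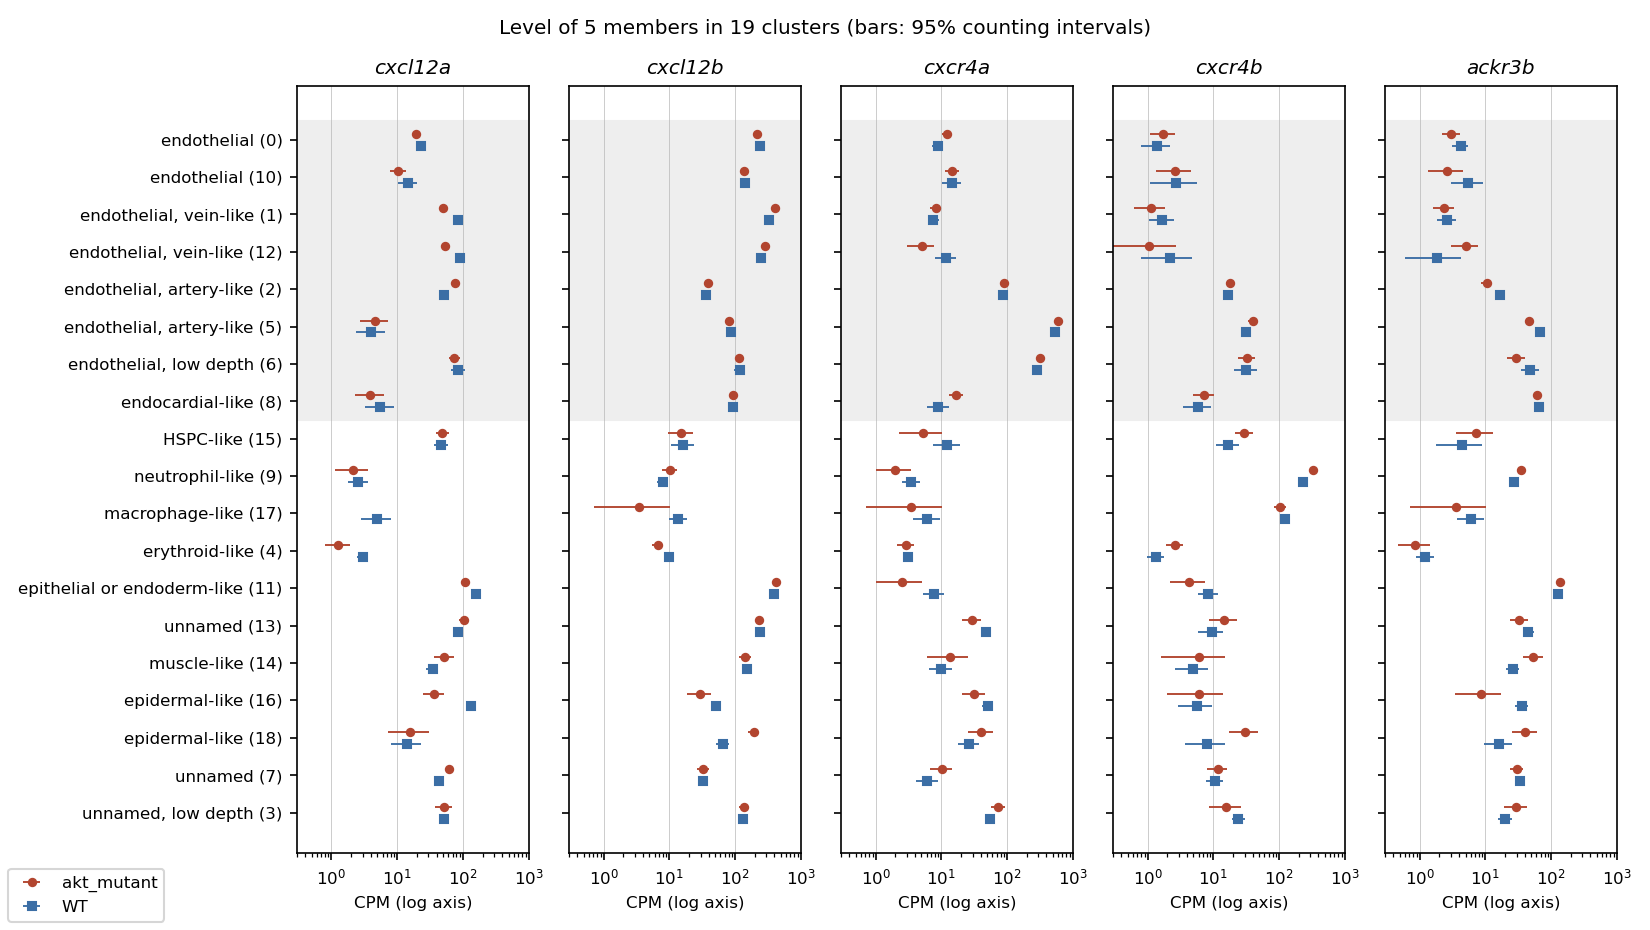
Level of the members other than ackr3a in each cluster with at least 30 cells in each library, in CPM on a log axis. The akt_mutant points are circles above WT squares, with bars for 95% counting intervals. The grey band holds the endothelial clusters, and clusters with 0 UMIs have no point. The cxcr4a points of cluster 5 lie at 598 and 540 CPM, those of cxcr4b in the neutrophil-like cluster 9 at 334 and 232 CPM, and cxcl12a lies between 3.87 and 5.52 CPM in clusters 5 and 8.

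Cxcl12a was also highest in cluster 11, with 106 CPM in akt mutants (94.6 to 119) and 158 CPM in WT (146 to 170), but this lead was not separated in either library. In akt mutants it overlapped the 105 CPM of the unnamed cluster 13, which has fibroblast and neural crest markers. In WT it overlapped the 133 CPM (118 to 149) of the epidermal-like cluster 16. Among the endothelial clusters cxcl12a was spread differently from cxcl12b. It had 49.1 and 83.3 CPM in cluster 1, 53.5 and 91.6 CPM in cluster 12 and 76.6 and 51.5 CPM in the artery-like cluster 2 of akt mutants and WT. In the artery-like cluster 5 it was at 4.60 CPM in akt mutants (18 UMIs in 572 cells) and 4.06 CPM in WT (16 UMIs in 859 cells), close to the 1.27 and 3.01 CPM of erythroid-like cells. The endocardial-like cluster 8 was as low, with 3.87 and 5.52 CPM.

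The endothelial clusters with much and with little cxcl12a also differed in hox genes, which mark the position of cells along the head-to-tail axis. The nearest gene to cxcl12a over clusters was hoxb3a, with a Pearson r of 0.89 over 38 points, which are 19 clusters in each library and share the library depths. For this reason the summed level of 49 hox genes was looked at, a choice made after the values had been seen. It was 810 and 801 CPM in cluster 2 of akt mutants and WT but 50.9 and 74.6 CPM in cluster 5. Clusters 1, 12, 6 and 11 had between 482 and 1302 CPM, and clusters 0, 8 and 10 had between 49.8 and 78.9 CPM.

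**Figure D2:**
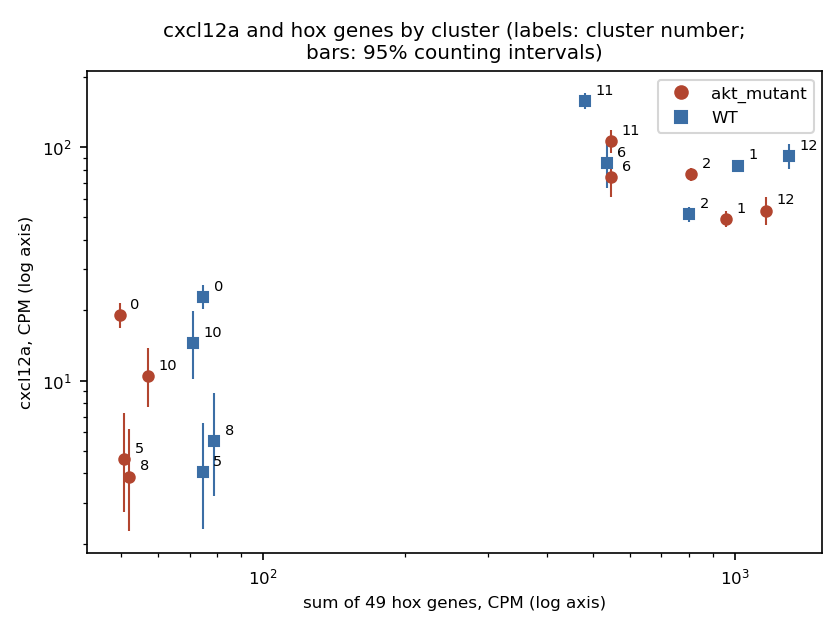
Level of cxcl12a against the summed level of 49 hox genes in 8 endothelial clusters and cluster 11, both in CPM on log axes, with akt_mutant as circles and WT as squares, cluster numbers beside the points and bars for 95% counting intervals. The points form a group at or above 482 CPM of hox genes with 49.1 to 158 CPM of cxcl12a, and a group of 78.9 CPM of hox genes or less with 3.87 to 22.8 CPM.

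The receptor gene cxcr4a marked the arterial clusters. Its level in cluster 5 was 598 CPM in akt mutants (574 to 623) and 540 CPM in WT (517 to 563), which was 6.61-fold and 6.22-fold that of cluster 2 of the same library. Cluster 5 held 2339 of the 4619 cxcr4a UMIs of the akt mutant library and 2128 of the 4558 of WT. The low-depth endothelial cluster 6, which has 6 artery markers but stays unnamed, followed with 324 and 285 CPM, and cluster 2 had 90.5 and 86.8 CPM. The vein-like cluster 1 had 8.30 and 7.58 CPM in akt mutants and WT, near the 2.90 and 3.15 CPM of erythroid-like cells.

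Shares of cells gave the same order. With every cell thinned to 1000 UMIs, cxcr4a was seen in 36.3% of cluster 5 cells of akt mutants and 31.0% of WT, against 8.51% and 8.68% in cluster 2 and 0.651% and 0.682% in erythroid-like cells. Without thinning the shares in cluster 5 were 63.6% and 57.3%, at a median of 6166.5 UMIs per akt mutant cell and 4114 per WT cell, and those in erythroid-like cells 6.07% and 3.88%, at medians of 29228.5 and 20254 UMIs.

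The paralog cxcr4b was a gene of the white blood cells. It had 334 CPM in neutrophil-like cells (cluster 9) of akt mutants (319 to 349) and 232 CPM in WT (224 to 241), and 103 and 124 CPM in macrophage-like cells (cluster 17). HSPC-like cells (hematopoietic stem and progenitor cells, cluster 15) had 29.7 CPM in akt mutants and 16.8 CPM in WT. Within the endothelium it followed the arterial clusters at a lower level, with 39.9 and 32.0 CPM in cluster 5, 17.9 and 16.5 CPM in cluster 2, and 1.11 and 1.67 CPM in cluster 1, against 2.60 and 1.33 CPM in erythroid-like cells.

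The scavenger gene ackr3b was highest in cluster 11, with 139 CPM in akt mutants (125 to 153) and 129 CPM in WT (119 to 141). Both ligand genes also had their highest level in this cluster. Over all 38 points, however, the Pearson r of ackr3b was only 0.22 with cxcl12a and 0.25 with cxcl12b. Endocardial-like cells had 62.1 and 65.5 CPM of ackr3b, cluster 5 had 46.0 and 69.0 CPM, and cluster 2 had 10.5 and 16.8 CPM in akt mutants and WT. Neutrophil-like cells carried it as well, at 34.9 and 27.2 CPM. The venous cluster 1, the main endothelial place of cxcl12b, had 2.37 and 2.64 CPM, against 0.845 and 1.22 CPM in erythroid-like cells.

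Its paralog ackr3a was hardly captured. The akt mutant library held 35 of its UMIs and the WT library 75, of which 10 and 7 lay in endothelial cells and 0 and 1 in artery cells. It was densest in the cluster with skeletal muscle markers, 14, with 11 UMIs in 86 akt mutant cells and 10 UMIs in 315 WT cells, where the median depth was 2049.5 and 3600 UMIs per cell. No ratio for endothelial cells is given for it.

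Endothelial cells were called artery where dll4, efnb2a and notch3 each had a UMI, and vein where stab2, dab2 and lyve1b did, and cells that met both rules were kept apart. There were 401 artery and 2138 vein cells in akt mutants and 487 artery and 3107 vein cells in WT. None of the members was used in these calls. The calls depend on the depth of a cell and on the level of the markers. The median depth was 11158 UMIs in artery and 10505.5 in vein cells of akt mutants, and 7392 and 6672 in those of WT. The study reports weaker efnb2a and notch3 staining in the main artery of mutants. In akt mutants cxcr4a had 218 CPM in artery cells and 7.47 CPM in vein cells, a 29.1-fold difference, and in WT it had 188 and 9.44 CPM, a 19.9-fold difference. The difference between artery and vein was 14.9-fold in akt mutants and 9.48-fold in WT for cxcr4b, and 7.41-fold and 8.53-fold for ackr3b. The opposite held for cxcl12b, which had 69.8 CPM in artery and 283 CPM in vein cells of akt mutants and 43.9 and 264 CPM in those of WT, and so was 4.05-fold and 6.01-fold lower in artery cells.

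The order of artery and vein differed between the libraries for cxcl12a alone of the 5 members measured. In akt mutants it had 64.8 CPM in artery cells (57.8 to 72.4) and 41.8 CPM in vein cells (39.2 to 44.5). In WT it had 46.3 CPM in artery cells (39.9 to 53.5) and 68.1 CPM in vein cells (64.7 to 71.6). The log2 ratio of artery to vein was 0.63 in akt mutants and -0.56 in WT. The intervals of artery and vein cells did not overlap in either library.

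**Figure D3:**
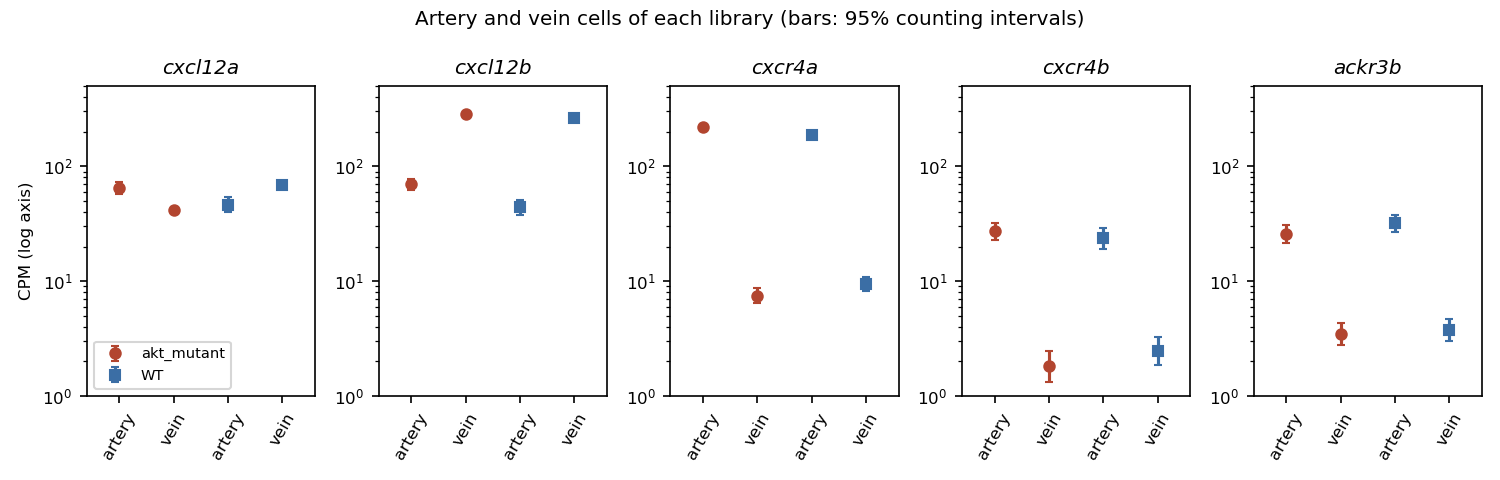
Level of 5 members in artery and vein cells of akt_mutant (circles) and WT (squares), in CPM on a log axis, with bars for 95% counting intervals. The receptor genes and ackr3b are higher in artery cells and cxcl12b in vein cells of both libraries, while cxcl12a is higher in artery cells of akt_mutant, at 64.8 against 41.8 CPM, and in vein cells of WT, at 68.1 against 46.3 CPM.

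Between the genotypes, cxcl12a was the member that differed most in vein cells. The log2 ratio there was -0.71 (-0.82 to -0.59), from 984 UMIs in akt mutants and 1508 in WT, and in cluster 1 it was -0.76 (-0.90 to -0.62). In cluster 12 it was -0.78 (-1.05 to -0.50) and in cluster 0 -0.26 (-0.52 to -0.01). The vein cells were spread unequally over the clusters, with 37.0% of those in akt mutants and 46.3% of those in WT in cluster 1, and 10.9% and 5.18% in cluster 10. In a split made after the values had been seen, the 982 akt mutant and 1665 WT vein cells of clusters 1 and 12 had a ratio of -0.76 (-0.90 to -0.62). The 1156 and 1442 vein cells outside these clusters had 26.8 CPM in akt mutants and 29.6 CPM in WT, a ratio of -0.15 (-0.38 to 0.09) whose interval held 0. These pooled cells had ratios of both signs. Those in cluster 0 had -0.30 (-0.60 to 0.002), and those in cluster 2 had 0.85 (0.37 to 1.35). A gene was counted as past the fold if it had at least 100 UMIs over both libraries and differed by at least 1.5-fold. In vein cells 1 of the 4 members measured was past it, cxcl12a, against a background of 14.3% of 10376 genes, and in cluster 1 it was 1 of 3, again cxcl12a, against 13.8% of 8857 genes. With every cell thinned to 1000 UMIs the cluster 1 ratio was -0.46 (-0.86 to -0.08), which is under 1.5-fold.

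In artery cells, most of whose cxcl12a lay in cluster 2, cxcl12a went the other way. Its log2 ratio was 0.48 (0.22 to 0.75) in artery cells, from 314 UMIs in akt mutants and 187 in WT, and 0.57 (0.43 to 0.72) in cluster 2. Cluster 2 held 292 and 171 of these artery-cell UMIs. The other artery-like cluster, 5, gave 0.18 (-0.87 to 1.25) on 18 and 16 UMIs. The unnamed endothelial cluster 6 gave -0.20 (-0.64 to 0.25), and both intervals held 0. Of the cluster 2 cells, those called artery had 88.7 CPM in akt mutants and 53.9 CPM in WT, and those called vein, 74 and 119 cells, had 102 and 56.4 CPM, a log2 ratio of 0.85 (0.37 to 1.35). The hox genes of cluster 2 differed little between the libraries, as given above, and the summed 6 artery markers, all detected, were lower, with 618 CPM in akt mutants and 839 CPM in WT. The part of these in the cxcl12a ratio was not tested.

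Outside the endothelium the cxcl12a ratio was -0.57 (-0.77 to -0.37) in cluster 11 and -1.86 (-2.46 to -1.32) in the epidermal-like cluster 16, which had 64 akt mutant and 214 WT cells, and 0.51 (0.21 to 0.81) in the unnamed cluster 7, whose leading genes include sox19a, gfap and pax6a. Free RNA was not measured itself, and the erythroid-like cells had 1.27 CPM of cxcl12a in akt mutants and 3.01 CPM in WT. The 7 epidermal markers, all detected, summed to 55.1 CPM in vein cells of akt mutants and 113 CPM in those of WT. The part of free RNA in the vein ratio was not tested. Over all endothelial cells the ratio of cxcl12a was -0.29 (-0.37 to -0.20).

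**Figure D4:**
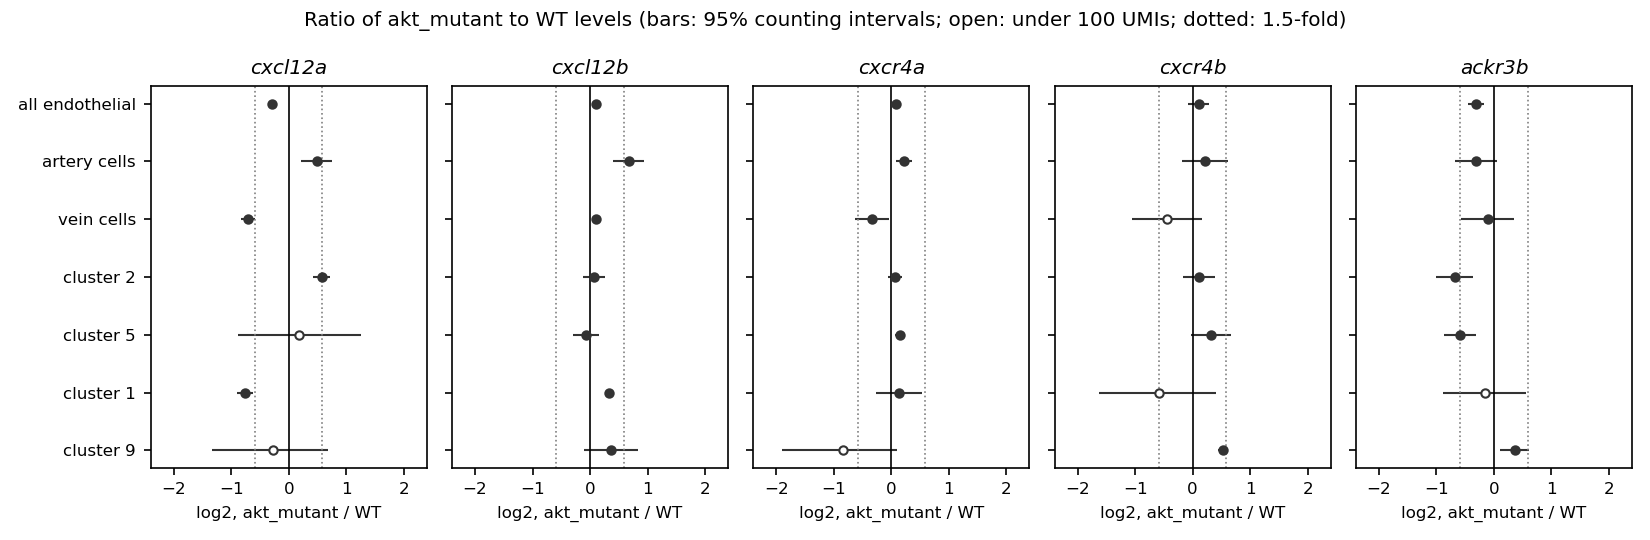
Log2 ratio of akt_mutant to WT for 5 members in endothelial, artery and vein cells and in clusters 2, 5, 1 and 9, with bars for 95% counting intervals, open points for under 100 UMIs and dotted lines at 1.5-fold. The cxcl12a points lie right of 0 in artery cells and cluster 2, at 0.48 and 0.57, and left of 0 in vein cells and cluster 1, at -0.71 and -0.76.

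For cxcl12b the ratio in artery cells was 0.67 (0.40 to 0.94), with 338 UMIs in akt mutants and 177 in WT. It was past 1.5-fold as 1 of 5 members measured, against 9.77% of 5680 genes. The artery cells were then split by cluster, a choice made after the values had been seen. Of the artery cells, 33 in akt mutants and 19 in WT lay in the vein-like clusters 1 and 12, and they held 175 of the 338 akt mutant UMIs and 31 of the 177 WT UMIs. Their level also differed, with 369 CPM in akt mutants and 193 CPM in WT, a log2 ratio of 0.93 (0.38 to 1.54). Without these cells the level was 37.3 CPM in akt mutants and 37.7 CPM in WT, a log2 ratio of -0.01 (-0.35 to 0.32). However, cxcl12b was among the variable genes used for clustering, and clusters 1 and 12 had its highest endothelial levels. The removal can therefore take out cells high in cxcl12b by construction, and what the ratio rests on was not tested. In clusters 2 and 5 the ratio was 0.07 (-0.12 to 0.26) and -0.08 (-0.30 to 0.15). The 6 vein markers, all detected, summed to 916 CPM in artery cells of akt mutants and 756 CPM in those of WT. The removal left cxcl12a in artery cells at 0.55 (0.28 to 0.82).

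In the venous cells themselves cxcl12b was somewhat higher in akt mutants. The log2 ratio was 0.10 (0.05 to 0.15) in vein cells, with -0.0076 (-0.09 to 0.08) in those outside clusters 1 and 12, and 0.33 (0.28 to 0.39) in cluster 1, a 1.26-fold difference. In cluster 0 it was -0.14 (-0.21 to -0.06) and in cluster 12 it was 0.15 (0.02 to 0.29). The paired ligand genes therefore had ratios of opposite sign in clusters 1 and 12, and both were below 0 in cluster 0.

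The receptor gene cxcr4a was not past 1.5-fold in endothelial, artery or vein cells or in clusters 1, 2 and 5. Its log2 ratio was 0.09 (0.02 to 0.15) over endothelial cells, 0.21 (0.08 to 0.35) in artery cells, 0.15 (0.06 to 0.23) in cluster 5 and 0.06 (-0.06 to 0.18) in cluster 2. The endocardial-like cluster 8 gave 0.89 (0.25 to 1.57), past 1.5-fold upwards, on 74 akt mutant and 28 WT UMIs. Cells that met both the artery and the vein rule gave -0.74 (-1.20 to -0.29), past it downwards, on 68 and 106 UMIs. Cluster 0 gave 0.47 (0.10 to 0.84) and cluster 12, on under 100 UMIs, gave -1.23 (-2.13 to -0.36). The share of all genes past the fold was not counted in these groups. The cluster 5 value moved with the processing, to 0.48 (0.39 to 0.56) with 15 principal components, 0.46 (0.27 to 0.64) with every cell thinned to 1000 UMIs and 0.32 as a mean over cells, and the endothelial value was between 0.25 and 0.39 in 4 alternatives. The artery cells of akt mutants held more cluster 5 cells, 85 of 401 (21.2%, 17.3 to 25.5) against 86 of 487 in WT (17.7%, 14.4 to 21.3), though these intervals overlapped. Cluster 2 held 63.1% (58.2 to 67.8) of the artery cells of akt mutants and 73.1% (68.9 to 77.0) of those of WT. Cluster 12 held 3.74% (2.11 to 6.09) and 0.616% (0.127 to 1.79). For clusters 2 and 12 the intervals did not overlap. Within the cluster 2 part of the artery cells the ratio was -0.03 (-0.25 to 0.19). In vein cells it was -0.34 (-0.64 to -0.04), with 176 UMIs in akt mutants and 209 in WT, and the 74 akt mutant and 119 WT vein cells that lay in cluster 2 had 23 and 65 of these. The vein interval held 0 with TMM factors, at -0.26 (-0.55 to 0.04), and without the highest doublet scores, at -0.22 (-0.58 to 0.13).

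The ratio of cxcr4b was not separated from 0 in endothelial cells, at 0.10 (-0.08 to 0.29), or in artery cells, at 0.21 (-0.18 to 0.61). In neutrophil-like cells it was 0.52 (0.44 to 0.60), from 2047 UMIs in 280 akt mutant cells and 2987 UMIs in 767 WT cells. The 7 neutrophil markers, all detected, ran the other way, with 12995 CPM in these cells of akt mutants and 22033 CPM in WT, and the 6 erythroid markers summed to 1064 and 5874 CPM. None of the 3 members measured in cluster 9 was past 1.5-fold, against 14.4% of 7162 genes. With every cell thinned to 1000 UMIs, 58 of 271 akt mutant and 150 of 749 WT cells had a UMI of cxcr4b. At that depth the ratio was 0.30 (-0.09 to 0.67).

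The counted level of ackr3b was lower in both artery-like clusters of the akt mutant library. The log2 ratio was -0.68 (-1.003 to -0.357) in cluster 2, with 128 UMIs in akt mutants and 221 in WT, and -0.58 (-0.86 to -0.31) in cluster 5, with 180 and 272 UMIs. In cluster 2 it was past 1.5-fold as 1 of 5 members measured, against 11.2% of 8575 genes, though it was at -0.48 as a mean over cells, under 1.5-fold, and at -0.60 (-1.58 to 0.31) with every cell thinned to 1000 UMIs. In cluster 5 none of 4 members was, against 9.22% of 5119 genes. Artery cells gave -0.31 (-0.68 to 0.06), which was not separated from 0. The cluster 5 value moved to -0.28 (-0.53 to -0.03) with 15 principal components and to -0.26 (-0.87 to 0.33) with every cell thinned to 1000 UMIs. Endocardial-like cells gave -0.08 (-0.34 to 0.19) and cluster 11 gave 0.10 (-0.09 to 0.29), and both intervals held 0. Other places of ackr3b had intervals without 0. Neutrophil-like cells gave 0.36 (0.11 to 0.61) and all non-endothelial cells together gave 0.32 (0.19 to 0.44). The epidermal-like cluster 16 gave -2.09 (-3.45 to -0.98), on 7 UMIs in akt mutants and 78 in WT. The low-depth endothelial cluster 6 gave -0.71 (-1.36 to -0.05), on 43 and 41 UMIs. Upward ratios came from cluster 14, at 1.04 (0.41 to 1.64) on 36 and 69 UMIs, and cluster 18, at 1.34 (0.39 to 2.32) on 23 and 18 UMIs. In cluster 16 cxcr4a (-0.69), cxcl12a (-1.86) and cxcl12b (-0.83) also had intervals below 0. In cluster 18 cxcr4b (1.90) and cxcl12b (1.56) also had intervals above 0, while those of cxcr4a and cxcl12a held 0. The share of all genes past the fold was not counted in clusters 6, 14, 16 and 18. Over endothelial cells the ackr3b ratio was -0.31 (-0.46 to -0.17), and no member was past 1.5-fold there, 0 of 5 against 15.2% of 12719 genes.

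Endothelial cells with a UMI of cxcr4a were examined for the other members, with every cell thinned to 1000 UMIs. Of these cells 4.66% in akt mutants (19 of 408) and 4.12% in WT (21 of 510) also had a UMI of cxcr4b, against 0.803% and 0.812% of the cells without cxcr4a. For ackr3b the shares were 7.60% and 6.47% with cxcr4a and 1.17% and 1.73% without. Over all endothelial cells cxcr4b and ackr3b thus went with cxcr4a, and cxcl12b went against it, being seen in 7.60% and 9.61% of cells with cxcr4a and in 16.8% and 16.1% of those without, in akt mutants and WT. For cxcl12a the shares were 2.45% (1.18 to 4.46) with cxcr4a and 3.95% (3.46 to 4.48) without in akt mutants, where the intervals overlapped, and 1.96% (0.944 to 3.58) and 4.22% (3.79 to 4.69) in WT, where they did not.

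Within single clusters the pattern held for ackr3b in cluster 5. There, cells with cxcr4a had ackr3b in 10.7% of akt mutant cells (21 of 196) and 9.84% of WT cells (25 of 254), against 1.74% (6 of 344) and 4.25% (24 of 565) of the cells without cxcr4a. The cxcr4b shares in cluster 5 had overlapping intervals, at 5.61% (2.83 to 9.82) with and 2.03% (0.822 to 4.15) without cxcr4a in akt mutants and 4.72% and 3.89% in WT. In cluster 2 those of ackr3b overlapped as well, at 3.06% and 1.14% in akt mutants and 3.25% and 1.79% in WT. For cxcl12b in cluster 5 the shares were 9.18% and 10.6% with cxcr4a and 10.5% and 7.79% without, so its opposition to cxcr4a was not seen inside the cluster. The ligand genes did not exclude each other: in endothelial cells cxcl12b was seen in 14.8% and 15.7% of cells with cxcl12a and in 16.2% and 15.7% of those without.

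**Figure D5:**
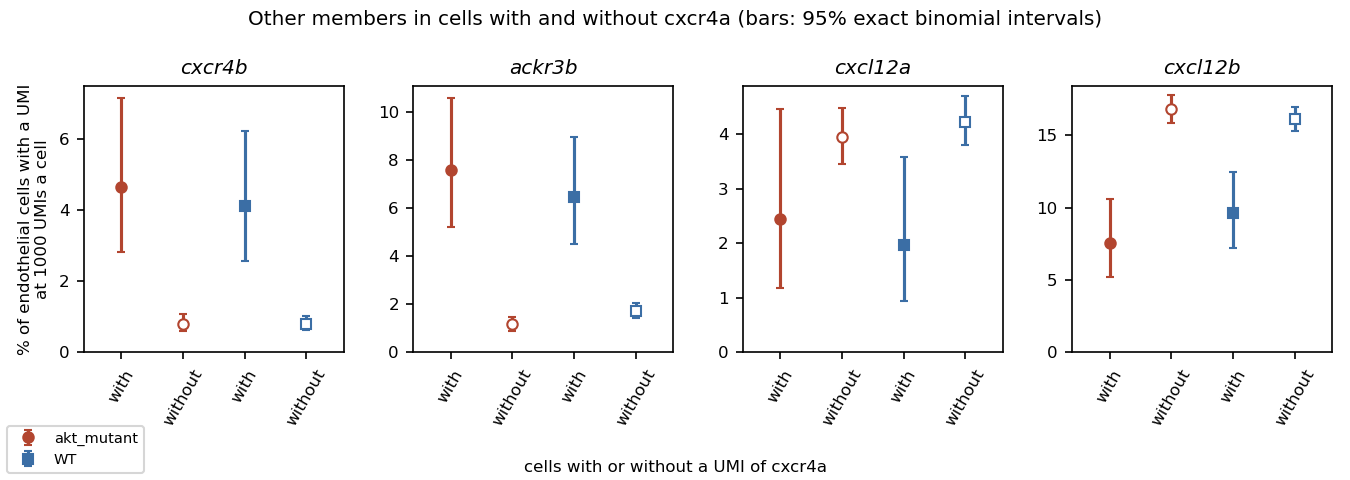
Percent of endothelial cells with a UMI of cxcr4b, ackr3b, cxcl12a or cxcl12b, among cells with (filled) and without (open) a UMI of cxcr4a, at 1000 UMIs per cell, in akt_mutant (circles) and WT (squares), with 95% exact binomial intervals; vertical axes start at 0 and differ in range. For cxcr4b and ackr3b the filled points are above the open ones, at 4.66% and 7.60% in akt_mutant, and for cxcl12b they are below.

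The genes whose pattern over clusters was most like each member were listed by the Pearson r of log2(CPM + 1) over the same 38 points, as a description. Those of cxcr4a were ehd2b (0.85) and cavin1b (0.83), genes of caveolar proteins, igfbp7 (0.85), which encodes a secreted binding protein, and the tetraspanin genes cd81b (0.82) and tspan18a (0.81). For cxcr4b they were si:ch211-136m16.8 (0.81), ncf1 (0.81), a subunit gene of the phagocyte oxidase, il6r (0.81), fmnl1a (0.80) and si:cabz01036022.1 (0.80). For cxcl12a the next after hoxb3a were greb1l (0.86), znf503 (0.84), hoxc3a (0.84) and postnb (0.83).

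For cxcl12b the list was flrt3 (0.87), nrp2b (0.85), a neuropilin co-receptor gene, traf4a (0.85), the Wnt receptor gene fzd7a (0.85) and lamp1b (0.84). Those of ackr3b were adgrl2a (0.88), wnt11r (0.79), tbx1 (0.75), smad6a (0.73) and plxna3 (0.72). For ackr3a the first was ptprua (0.84), followed by rbm24b, CABZ01072245.1, nat16 and cfl2, on few UMIs of the member. Among the members themselves the highest r was 0.61, between cxcl12a and cxcl12b, and the lowest was -0.54, between cxcr4b and cxcl12b.

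Genes that carry the signal from Cxcr4 were counted in the same way. Of 28 listed, 27 reached 100 UMIs in endothelial cells, 0 were past 1.5-fold upwards and 2 downwards, beside 653 up and 1274 down of the 12719 genes measured (15.2%), with a median log2 ratio of -0.0038 against -0.07 over all genes. These were rac1b, a paralog of the Rac GTPase that drives membrane protrusion, with 17.6 CPM in akt mutants and 45.8 CPM in WT (log2 ratio -1.38), and gnb4b, a G protein beta subunit, with 3.99 and 7.85 CPM (-0.98). The rac1b paralog rac1a had a log2 ratio of 0.03 in endothelial cells and 0.05 in vein cells. In artery cells 20 were measured, of which stat3 was past the fold upwards, at 0.62 (0.248 to 1.004), and rac1b downwards, at -1.50, and in vein cells 26 were measured, with rac1b and gnb4b downwards. Over all genes 9.77% were past the fold in artery cells and 14.3% in vein cells.

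Of 17 genes of receptor desensitization and trafficking, 10 were measured in endothelial cells and 1 was past the fold, against 15.2% of all genes. This was rgs4, which encodes a protein that turns G protein signals off, with 2.58 CPM in akt mutants and 4.73 CPM in WT (-0.88). It was also the 1 of 10 in vein cells, at -0.63, against 14.3% of all genes, and 0 of 5 were past the fold in artery cells, against 9.77%. The arrestin gene arrb2b had 264 and 220 CPM in endothelial cells, a log2 ratio of 0.26 (0.23 to 0.30). Among 7 genes of other ligands, partners and the cleaving protease, mif, whose product also binds CXCR4 in mammals, was past the fold in all 3 groups, at -0.70 in endothelial, -0.76 in artery and -0.72 in vein cells, with 27.5 CPM in akt mutant and 44.6 CPM in WT endothelial cells. The others measured, 3 in endothelial and 2 each in artery and vein cells, held 1 more gene past the fold, cxcl14 in endothelial cells, at -0.63 on 45 UMIs in akt mutants and 65 in WT. Beside these stood 15.2% of all genes in endothelial, 9.77% in artery and 14.3% in vein cells.

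Of 21 other chemokine and chemokine receptor genes, 3 were measured in endothelial cells and all were past the fold downwards, beside 1274 of the 12719 genes measured. The chemokine gene cxcl20 had 19.7 CPM in akt mutants and 50.9 CPM in WT (-1.37), cxcl18b had 2.70 and 9.71 CPM (-1.85), and the receptor gene cxcr3.2 had 46 and 79 UMIs (-0.88). Both chemokine genes were lower in vein cells too, at -1.41 and -2.03, and cxcl20 was lower in artery cells, at -1.23. In endothelial cells the level of hbae3, an embryonic globin gene of red cells, was 389 CPM in akt mutants and 1264 CPM in WT, and that of the neutrophil gene lyz 30.1 and 95.2 CPM. The part of free RNA in these low levels was not tested.

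Genes of flow, hypoxia and Notch that are linked to cxcr4a were also counted. Of 11, none was past the fold in the 10 measured in endothelial cells or the 10 in vein cells, where 15.2% and 14.3% of all genes were. Of 9 in artery cells, where 9.77% of all genes were past the fold, klf2a, which encodes a transcription factor raised by blood flow, was past it upwards, with 70.2 CPM in akt mutants and 36.9 CPM in WT (0.93, 0.64 to 1.21). It was at 70.2 and 35.1 CPM (1.001, 0.705 to 1.303) in the artery cells outside clusters 1 and 12. The endocardial markers summed to 82.6 CPM in artery cells of akt mutants and 50.3 CPM in those of WT, but klf2a is one of them, and the other 5 had 60 UMIs (12.4 CPM) and 54 UMIs (13.4 CPM). In vein cells klf2a had 108 CPM in akt mutants and 133 CPM in WT (-0.31). The study reports klf2 and cxcr4 expression in mutants similar to WT, by staining of whole embryos at a later stage. It names no paralog of either gene. The Notch ligand gene dll4 was past the fold downwards in artery cells, at -0.62, but it served to call these cells, so its level there is no result, and over all endothelial cells it had 142 and 191 CPM (-0.43).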

How the data were processed

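Cells positive for kdrl:mCherry from akt mutant and WT embryos at 24 hpf were profiled in 1 droplet library each. The authors deposited a matrix of UMI counts per gene and cell for each library, written by Cell Ranger 5.0.0, as raw whole-number counts with no normalization. Neither genome build nor annotation is given in the sources used here. The labels name the V3.1 kit.

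Cells with at least 200 detected genes were clustered with R 4.3.3 and Seurat 5.3.0 (2000 variable genes, which held 5 of the 6 members, 30 components, resolution 0.6), with the libraries merged without integration. Clusters were named by marker lists, with at least 3 markers and leading genes that did not contradict the name. Clusters 6, 7 and 13 reached 3 markers but stayed unnamed. Rebuilt names may differ from those of the study. Doublets were not removed. Scrublet in scanpy 1.11.5 did not work at its own threshold, so an alternative left out the highest scores, 716 akt mutant and 2151 WT cells. Counts were summed per group in Python 3.11.15 with scipy 1.17.1, TMM factors came from edgeR 4.0.16, and the ratio calculation was tested on simulated data. Ratios needed 20 UMIs, and their intervals were derived from the Clopper-Pearson interval of the akt mutant UMIs among those of both libraries. The same method served for shares.

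The members, gene lists and rules were chosen with earlier results of these data known. Named were the members, for each member the 5 genes with the highest r over clusters with at least 30 cells in each library (at least 200 UMIs), and genes of 5 lists past 1.5-fold with at least 100 UMIs. No sequences are shown.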

Additional observations from a re-analysis of the deposited data

Results flagged for a closer look

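For cxcl12a and cxcr4a the ratio of akt mutant to WT lay on opposite sides of 0 in artery and vein cells, with counting intervals that excluded 0 in both as reported. Artery cells had a log2 ratio of 0.48 for cxcl12a and vein cells one of -0.71. The cxcl12a ratio also differed between clusters within the vein cells. Those in cluster 2 had 0.85 (0.37 to 1.35), and those outside clusters 1 and 12 had -0.15 (-0.38 to 0.09). With every cell thinned to 1000 UMIs the vein ratio of cxcl12a was -0.73 (-1.62 to 0.08), an interval that held 0. The ratio of cxcr4a was 0.21 in artery and -0.34 in vein cells. For this gene the vein interval held 0 with TMM factors, without the highest doublet scores and in 14 of 20 draws at depths matched between the libraries, the artery interval held 0 without the highest doublet scores, at 0.13 (-0.01 to 0.27), and the vein ratio was 0.061 with at least 2 of 3 markers. With 1 library per genotype the difference between artery and vein cells was not tested for either gene.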

How the results depend on the processing

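With 1 library per genotype, leaving out a library was not run and the intervals show counting error only. No paired analysis was possible because the labels give no replicate numbers and each genotype has 1 library. Of the alternatives for the members' ratios, 41 of 55 in endothelial, 37 of 41 in artery and 40 of 47 in vein cells stayed within the interval of the reported value. The cxcl12a ratio stayed above 0 in artery cells and below 0 in vein cells in each alternative that gave a value. The same depths rank by rank, other cells, other clusterings and other weightings were tried, and those on artery cells outside and vein cells inside or outside clusters 1 and 12 were chosen after seeing the data. The causes of the changes below were not tested.

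In endothelial cells the log2 ratio of cxcr4a was 0.16 with TMM factors, 0.33 as a mean over cells, 0.39 with cells thinned to 1000 UMIs, 0.25 at depths matched between the libraries and 0.38 over all cells with a UMI of kdrl or cdh5. That of cxcl12a was -0.18 as a mean over cells, -0.089 at 1000 UMIs and -0.059 over cells with kdrl or cdh5. That of cxcl12b was 0.18 with TMM, 0.012 as a mean over cells, 0.054 at 1000 UMIs and 0.41 over cells with kdrl or cdh5. Over the last set of cells, cxcr4b was at -0.28 and ackr3b at -0.032.

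In artery cells cxcl12b was at 0.25 with at least 2 of 3 markers, 0.028 in the artery-led clusters 2 and 5 and -0.015 outside clusters 1 and 12, and cxcr4a at -0.49 with 1000 UMIs, where 7 akt mutant and 17 WT artery cells were left. In vein cells cxcr4a was at 0.061 with at least 2 of 3 markers. There cxcl12b was at 0.18 with TMM, 0.26 at 1000 UMIs, 0.28 in the vein-led clusters, 0.25 in vein cells of clusters 1 and 12 and -0.0076 in those outside, where cxcl12a was at -0.15.

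For the artery to vein log2 ratio, thinning to 1000 UMIs gave -1.36 in akt mutants and -1.37 in WT for cxcl12b and 6.88 in WT for cxcr4a, and cxcl12a had no artery UMI in WT. With at least 2 of 3 markers cxcr4a was at 3.92 and 3.85, ackr3b at 2.42 in akt mutants and cxcl12b at -2.26 in WT. In the artery-led and vein-led clusters cxcl12a was at 0.24 in akt mutants and -1.06 in WT, cxcl12b at -2.97 in akt mutants and ackr3b at 3.52 in WT. The cluster with the highest cxcl12a in akt mutants was 13 with 15 components and with the members and listed genes left out of the variable genes. The genes past 1.5-fold were 4148 in endothelial, 2200 in artery and 3345 in vein cells with at least 20 UMIs, and 751, 107 and 459 with at least 500 UMIs, against 1927, 555 and 1483.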
